A study of Caenorhabditis elegans with 2 samples.

Results

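The regions described here are the CEC-7 binding regions (peaks) on chromosome II of Caenorhabditis elegans. All peaks placed on that chromosome in the deposited peak list were taken, which gave 753 of the 4116 peaks in the list. They were read against the peaks of the other 4 autosomes, with 1005 on I, 974 on III, 793 on IV and 550 on V. The remaining 41 peaks of the list were on X. The list came from 1 library made by chromatin immunoprecipitation and sequencing (ChIP-seq) with a polyclonal antibody raised in rabbits against CEC-7 and purified by affinity. The worms were fem-2(b245) hermaphrodites with the mutation on chromosome III, held at 20 °C, and input DNA of this strain gave 1 further library. The fem-2 gene encodes a phosphatase that acts in male sex determination. The labels call the stage young adult with a germ line, while the growth protocol describes harvesting gravid adults, in which embryos contribute chromatin as well. Whole worms were ground, so each peak is a mixture over all tissues. With 1 ChIP library there was no replicate, and each value below describes this list without an error between worms or precipitations.

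CEC-7, encoded by Y37D8A.11, is named as a chromodomain protein, a class in which the chromodomain of several members binds methylated lysines on histone tails. Autosomes of C. elegans have a central region rich in broadly expressed genes, flanked on both sides by arms that recombine more often and are richer in repeats and in methylation of histone H3 lysine 9. The chromosomes have no single centromere, since kinetochores form along their length. Only the peaks were used here. The borders of the arms, the genes under the peaks and their sequence were not analysed.

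Chromosome II carried CEC-7 unevenly from left to right. The extent of the chromosome, taken from the first base to the end of its last peak, was 15.2 Mb, of which 15.7% lay inside a peak. Taken whole, II was near the other 4 autosomes together, with 49.4 peaks per Mb against 49.5 and 15.1% covered on those. Singly they had 70.8 peaks per Mb on III, 66.7 on I, 45.4 on IV and 26.4 on V. Peaks were assigned by midpoint to 3 equal parts of this extent. The left part held 159 peaks (21.1% of those on II), the central part 250 (33.2%) and the right part 344 (45.7%). The count of all peaks was thus higher at each step from left to right. Among peaks at or above the median score of the list, the counts were 76, 161 and 157 from left to right. Among peaks over 2.5 kb they were 64, 161 and 140, so the centre held the most in both classes. Counted as covered bases of all peaks, the shares were 19.2%, 41.6% and 39.2%. The right part thus led in number of all peaks but not in occupied sequence. Within the parts, 9.07% of the left, 19.6% of the central and 18.5% of the right sequence lay inside a peak.

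The same division showed a weaker or an opposite lean on the other autosomes. The right part of II held 2.16 times as many peaks as the left part. This ratio was 1.21 on III, 1.16 on V, 0.68 on I and 0.64 on IV, so II had the highest value of the 5 and I and IV leaned to the left. By covered bases the ratio was 2.04 on II and between 0.69 and 1.16 on the other 4. In covered bases III and V had the same order of parts as II, lowest on the left and highest in the centre. The shares from left to right were 29.3%, 37.7% and 32.9% on III and 26.0%, 43.7% and 30.3% on V. On II the median peak lay at 61.8% of the extent, against 43.96% on I, 45.3% on IV, 54.8% on V and 56.4% on III. The running count of peaks on II fell farthest behind an even spread at 27.7% of the extent, where 14.1% of the peaks had been passed, a departure of -13.6 percentage points. Chromosome IV departed by nearly as much in the other direction, 13.3 points ahead at 77.5% of the extent, and the largest departures on I, III and V were 7.38, -6.70 and -7.16 points. No test of these differences between chromosomes was possible with 1 list.

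**Figure D1:**
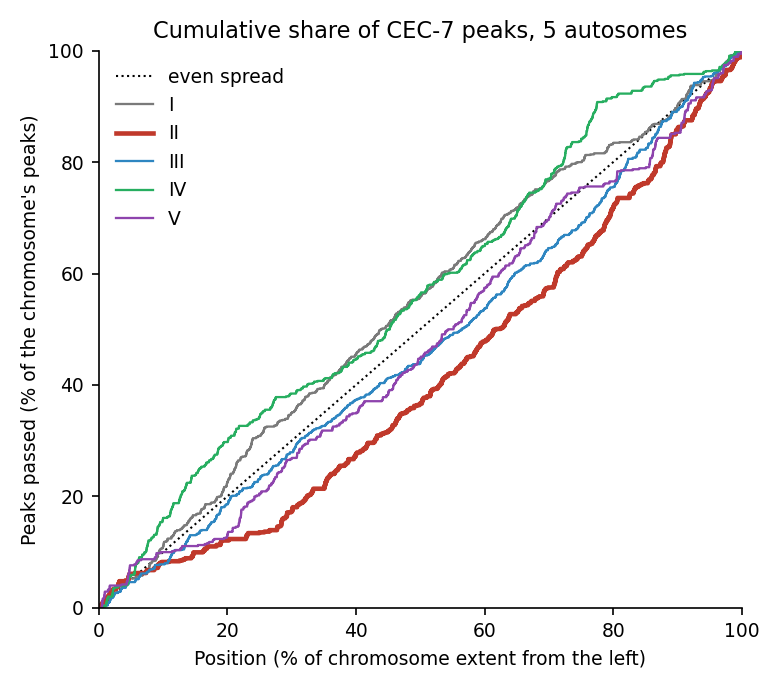
Cumulative percent of each autosome's CEC-7 peaks (vertical axis) against position as percent of the chromosome extent from the left (horizontal axis). The dotted line is an even spread, and the thick line of chromosome II lies farthest below it at 27.7% of the extent, where 14.1% of its peaks had been passed.

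Windows of 1 Mb showed where the left part was sparse. The first window held 47 peaks, and 46 of them had their midpoint in the first 750 kb. The next 3 windows held 18, 26 and 12 peaks, with 5.51%, 8.15% and 2.37% of their bases covered. From 4 Mb the counts returned to 50 and stayed between 46 and 60 in each of the 8 windows up to 12 Mb. The scarcity was thus a stretch inside the left part, with a populated tip before it. The window from 3 to 4 Mb ranked 3 from the bottom in coverage among the 80 full 1 Mb windows of the autosomes, and the windows from 1 to 2 Mb and from 2 to 3 Mb ranked 11 and 22 from the bottom. Together the 3 least covered windows of II were adjacent.

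From 1 to 4 Mb there were 56 peaks, or 18.7 per Mb, and 5.34% of the sequence was covered. The borders at 1, 4 and 12 Mb were set after the windows had been seen. Between 4 and 12 Mb the density was 51.9 per Mb, 2.78 times as high, and coverage was 19.6%, 3.67 times as high. Every autosome was then searched for its least covered 3 adjacent windows. On II these were the 3 from 1 to 4 Mb. On V they also ran from 1 to 4 Mb, with 30 peaks and 2.59% covered, and on IV they ran from 14 to 17 Mb, with 47 peaks and 3.74% covered. Chromosomes I and III had no stretch of that kind, with 11.2% and 19.3% covered in their least covered 3 windows. The most covered 3 windows of an autosome exceeded the least covered ones 3.89 times on II, against 5.14 times on IV, 4.22 on V, 2.63 on I and 1.47 on III. A sparse stretch of several Mb was therefore shared by II, IV and V.

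At a resolution of 250 kb, the 14 windows from 0.75 to 4.25 Mb had between 0.43% and 12.9% of their bases covered, with a median of 4.99%. Of the 9 full windows of II under 5%, 7 lay in this stretch. The 3 least covered started at 1.5 Mb (0.43%, 1 peak), at 0.75 Mb (0.52%, 1 peak) and at 1.75 Mb (0.99%, 2 peaks). Each of the 60 full windows contained at least 1 midpoint, so no 250 kb of II was empty on this grid. Chromosome V had 8 empty windows among 83 and IV had 1 among 69. The most covered windows of II started at 8 Mb (32.6%, 17 peaks), at 12 Mb (29.4%, 28 peaks) and at 10.75 Mb (29.4%, 25 peaks).

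**Figure D2:**
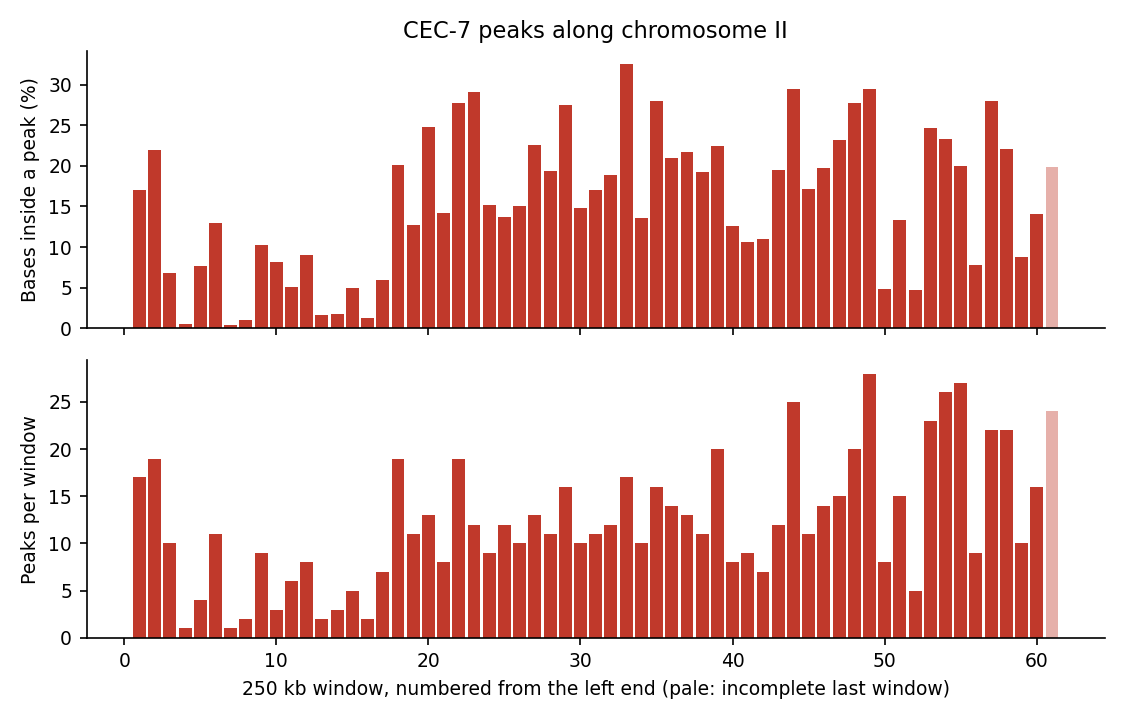
Percent of bases inside a CEC-7 peak (top) and number of peak midpoints (bottom) in each 250 kb window of chromosome II, numbered from the left end. Windows 4 to 17 have between 0.43% and 12.9% of their bases covered, and the tallest bar of the top panel, 32.6%, is the window that starts at 8 Mb.

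The sparse stretch was bounded and divided by long intervals without a peak. Of the 24 intervals over 100 kb on II, 15 were centred in the left part, 5 in the central part and 4 in the right part. Measured by its own intervals, the stretch ran from 731137 to 4223785, or 3.49 Mb, and contained 59 peaks. In it, 14 intervals over 100 kb took up 2.76 Mb, or 78.99% of the sequence, and 8 of the 10 longest intervals of II were among them. Between these intervals the peaks lay singly or in small groups, here called islands. They were not more closely grouped than elsewhere on II. From 1 to 4 Mb, 78.6% had a neighbour within 5 kb, against 91.5% before, 82.4% from 4 to 12 Mb and 89.4% beyond. When peaks no more than 5 kb apart were joined, 12 of the 26 islands from 1 to 4 Mb were single peaks.

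The longest interval of II, 401 kb, extended from 3085172 to 3486161. The second, 281 kb, lay on the right, from 12300676 to 12582041. The next 3 were 264 kb from 3543369 to 3806900, 263 kb from 857870 to 1120834, and 255 kb from 1661976 to 1916977. All but the second thus lay in the sparse stretch. The longest interval was 149 kb on III, 257 kb on I, 521 kb on IV and 592 kb on V, so II stood in the middle of the autosomes.

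The islands between these intervals included peaks with high scores. The score is the value that the authors' peak caller gave each peak, used here for ranking and description within the list only. The peak from 1123738 to 1133765, 10.0 kb wide with a score of 1521.76, followed the 263 kb interval and had the eighth highest score of II. A single peak from 1490667 to 1500093, 9.43 kb wide, scored 1307.64, and was chosen here after its value was seen. The largest island held 6 peaks between 2226513 and 2254158, with scores from 56.5 to 1172. Low occupancy over these 3 Mb thus did not mean that each peak was weak.

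As a whole, however, the peaks from 1 to 4 Mb were narrower and lower in score than those from 4 to 12 Mb. Their median width was 1787 bp (quartiles 1266 and 3456 bp) against 3024 bp (1969 and 4832 bp). Their median score was 110.5 against 304. When each peak of one stretch was paired with each of the other, the peak from 4 to 12 Mb scored higher in 68.3% of pairs (50% would be an even split). Peaks at or above the median score of the whole list, 196, had a density of 6.67 per Mb from 1 to 4 Mb and 33.1 per Mb from 4 to 12 Mb. That ratio, 4.97, exceeded the 2.78 of all peaks.

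From 4 to 12 Mb occupancy was even at the scale of 1 Mb. This stretch took up 52.5% of the extent and held 415 peaks, 55.1% of the peaks and 65.5% of the covered bases. Window coverage ranged from 15.9% to 23.8%, and median widths of the windows ranged from 2419 to 3976 bp. The 3 most covered windows of II were those from 8 to 9 Mb (23.8%, 57 peaks), from 11 to 12 Mb (21.9%, 60 peaks) and from 5 to 6 Mb (21.6%, 48 peaks). All 3 lay in the middle stretch, whose borders were set after these windows had been seen. They ranked 13, 19 and 21 from the top among the 80 autosomal windows. No full window of II exceeded 23.8%, while the highest reached 30.9% on I and 33.8% on III.

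Beyond 12 Mb the peaks were more numerous, narrower and lower in score. In the remaining 3.24 Mb there were 235 peaks, or 72.5 per Mb, which was 1.40 times the density from 4 to 12 Mb. Coverage was 17.01%, or 0.87 times that of the middle stretch. Their median width was 1730 bp (quartiles 1343 and 2854 bp), and the median of the middle stretch was 1.75 times as large. Their median score was 142. A peak of the middle stretch was the wider one in 71.5% of pairs and the better-scored one in 67.6%. The right stretch had peak widths near those of the sparse stretch, where the median was 1787 bp, at 3.88 times its number of peaks per Mb.

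The change in width at 12 Mb was abrupt on the scale of windows. Median width was 3106 bp in the 60 peaks from 11 to 12 Mb and 1564 bp in the 56 peaks from 12 to 13 Mb. Within 500 kb on each side, 35 peaks before the border had a median of 3011 bp and a median score of 348, and 36 peaks after it had 1555 bp and 129. The number of peaks was thus nearly equal across the border while width and score differed. This was the largest step in median width between neighbouring full windows of II, with a ratio of 1.99. The largest steps elsewhere were 1.58 on III, 1.44 on I, 1.44 on V and 1.33 on IV. The border was chosen from these data, and the step was not tested.

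**Figure D3:**
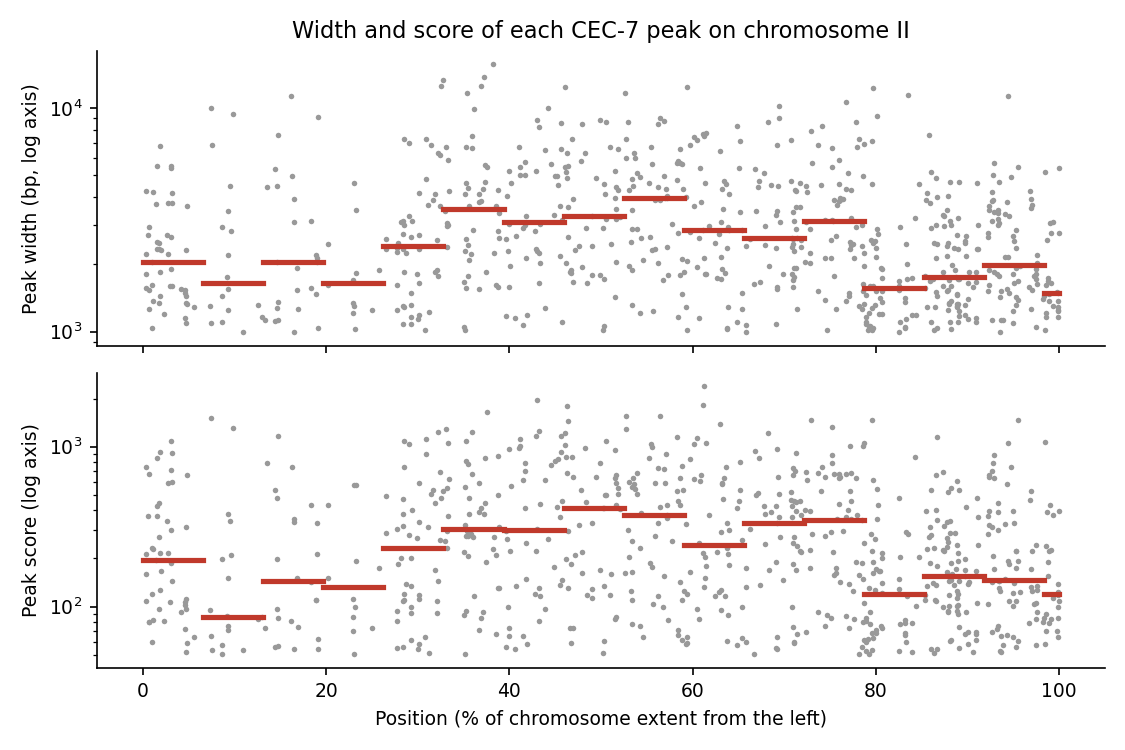
Width in bp (top, log axis) and score (bottom, log axis) of each of the 753 CEC-7 peaks of chromosome II against position as percent of the chromosome extent. Points are peaks and red lines are medians of 1 Mb windows, which fall from 3106 to 1564 bp in width between the windows before and after 12 Mb.

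The surplus on the right consisted of narrow peaks. Peaks of up to 2.5 kb had a density of 49.6 per Mb beyond 12 Mb, 19.9 per Mb from 4 to 12 Mb, 12.3 per Mb from 1 to 4 Mb and 31 per Mb in the first 1 Mb. Peaks over 2.5 kb followed another order, with 22.8 per Mb on the right, 32 in the middle, 6.33 in the sparse stretch and 16 in the first 1 Mb. Divided by score, peaks below the list median had densities of 45.9 per Mb on the right and 18.8 in the middle. Peaks at or above it had 26.5 and 33.1 per Mb. Whether the right or the middle stretch of II was denser thus depended on which peaks were counted, while the stretch from 1 to 4 Mb was the lowest in each of the 4 classes. A surplus of narrow peaks outside the centre was not particular to II. In 3 equal parts, peaks of up to 2.5 kb were least dense in the centre on each autosome. The right part of II had 40.1 per Mb and its centre 17.5, against 47.5 and 20.5 on III. On I the left part had 50.0 and the centre 26.9.

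**Figure D4:**
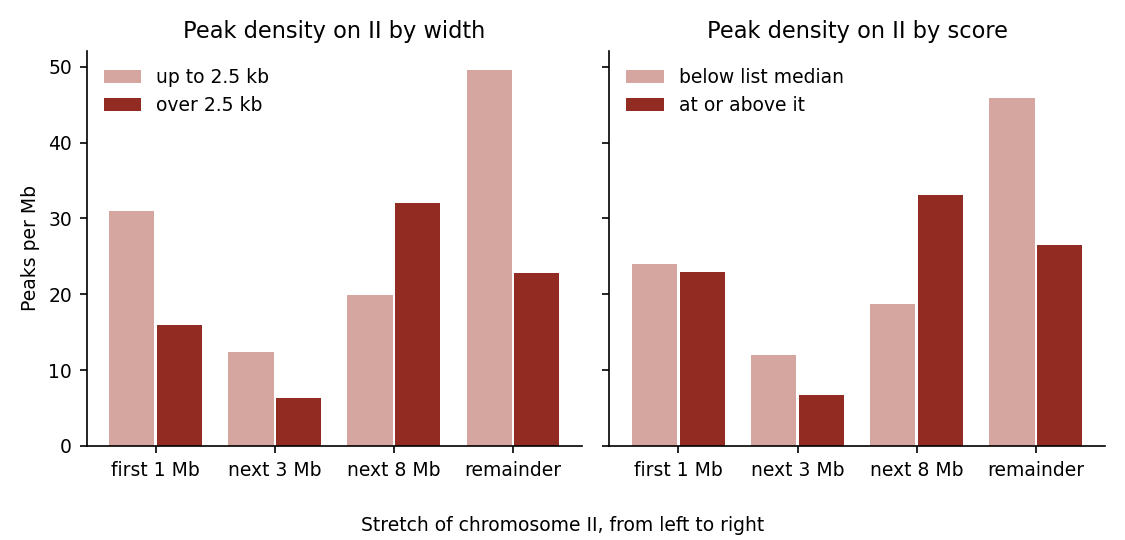
Density of CEC-7 peaks in peaks per Mb in 4 stretches of chromosome II, with peaks divided by width (left, at 2.5 kb) and by score (right, at the list median of 196). Narrow peaks reach 49.6 per Mb in the last stretch, from 12 Mb to the end, and peaks over 2.5 kb are densest, at 32 per Mb, in the stretch before it.

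The right part of the chromosome also had the highest single windows in number. The window from 13 to 14 Mb held 85 peaks, which ranked 6 among the 80 autosomal windows, and that from 14 to 15 Mb held 70, which ranked 14. By coverage, at 19.0% and 18.2%, the same windows ranked 28 and 30. Within the right stretch the peaks were not evenly laid. The 250 kb windows that started at 12.25 and 12.75 Mb held 8 and 5 peaks, with 4.89% and 4.76% of their bases covered, beside a window with 28 peaks at 12 Mb. Dense and thin windows thus lay side by side between 12 and 13 Mb.

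At the right end, the final 250 kb, counted back from where the last peak ended, held 24 peaks, with 19.6% of the bases covered. The corresponding windows held 14 peaks on III, 8 on I, 7 on IV and 6 on V. Coverage did not follow this order, since it was 18.8% on I and 16.7% on III. Median width of the 24 peaks was 1492.5 bp, their median score was 121, and 16 of them scored below the median of II. The right end of II was thus rich in small peaks. On I the median width of the last 8 peaks was 4500 bp, taken over few peaks. It was 2087.5 bp at the right end of III, 2456 bp on IV and 3012.5 bp on V. Small peaks at an end were not particular to II, since the first 250 kb had medians of 1606 bp on III and 1612.5 bp on V. The first 250 kb of I and IV had 2681 and 2160 bp. Over the last 1 Mb, II held 72 peaks, I 62, III 56, V 39 and IV 30. The last peak itself sets these windows, so sequence beyond it was not counted.

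The last peak of II spanned 15238065 to 15243458, was 5.39 kb wide and scored 107.8. It closed a run of 4 peaks that began at 15232350 and in which neighbours were 34 to 80 bp apart. At the other end, the first peak spanned 44134 to 45701, was 1.57 kb wide and also scored 107.8. The left tip had 17 peaks in 250 kb with 17.1% covered, and these had medians of 2218 bp in width and 215 in score. Both tips were thus populated, with fewer and wider peaks on the left than on the right. The 3 peaks with the highest score in the last 1 Mb were at 14558884 to 14564318 (1464.5), 15004204 to 15009348 (1065.08) and 14390734 to 14402100 (1054.19). They ranked 10, 35 and 38 on the chromosome.

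Across the whole chromosome, peaks of II had the next-to-highest median width of the 5 autosomes. Median width was 2455 bp (quartiles 1576 and 4117 bp), below the 2565 bp of III and above the 2273 bp of I, 2177 bp of IV and 2002 bp of V. Peaks wider than 5 kb numbered 120, or 15.9%, and held 37.2% of the covered bases of II. This share of wide peaks was 20.3% on III, 17.5% on I, 11.1% on IV and 8.55% on V. A peak of II was the wider one in 57.0% of pairs with V, 54.7% with IV, 51.5% with I and 47.2% with III. Width on II thus lay nearer to I and III than to V. The narrowest peak of II was 994 bp wide, and the narrowest on the other autosomes lay between 967 and 989 bp.

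Width varied along II as on the other autosomes, with the highest median width in the centre. The median width was 2211 bp in the left, 3287 bp in the central and 2129 bp in the right part. The central median was 1.49 times that of the left and 1.54 times that of the right part, and on the other autosomes these ratios lay between 1.38 and 1.61 and between 1.30 and 1.69. Of the central peaks of II 27.2% were wider than 5 kb, against 12.6% on the left and 9.30% on the right. The very widest were less confined, since 7 of the 16 peaks over 10 kb lay in the central part. Left and right parts thus differed in the number of peaks and had nearly the same widths.

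The 5 widest peaks of II lay within 0.89 Mb, between 4947005 and 5836294. The widest, 15.7 kb from 5820594 to 5836294, scored 229. It was followed by 13.8 kb from 5666158 to 5679936 (score 381), 13.3 kb from 4990587 to 5003889 (530), 12527 bp from 5616869 to 5629395 (84.98) and 12485 bp from 4947005 to 4959489 (476). None of them was among the 100 best-scored peaks of II. Of the 16 peaks wider than 10 kb, 4 scored below the list median, and the score of these 16 ranged from 64.2 to 1522. Great width thus did not come with a high score in each case, although across the 753 peaks the Spearman correlation of score and width was 0.82. On the other autosomes it lay between 0.78 and 0.83. Width and score of a peak come from the same library and the same caller, and the part of read depth in both was not tested.

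Scores of II followed the same order of chromosomes as widths. The median was 213 (quartiles 102 and 461) on II, 235 on III, 199 on I, 181 on IV and 145 on V. A peak of II had the higher score in 58.0% of pairs with V, 54.6% with IV, 50.9% with I and 46.6% with III. The upper 10% of the list by score began at 795 and included 76 peaks of II, or 10.1% of its peaks, against 14.3% on III, 10.9% on I, 6.68% on IV and 5.45% on V. Of these 76 peaks, 44 lay in the central, 18 in the right and 14 in the left part. By stretch, they were 14.7% of the peaks from 4 to 12 Mb and 2.98% of those beyond 12 Mb. High scores of II were thus gathered in its middle. The central part also held the most of these peaks on the other autosomes. It had 56 of 110 on I, 65 of 139 on III, 31 of 53 on IV and 15 of 30 on V.

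Within classes of width, scores of II were close to those of the other autosomes. Among peaks up to 1.5 kb wide the median score was 78.0 on II and 78.1 on I, III, IV and V together. Between 1.5 and 2.5 kb it was 149 and 156, between 2.5 and 5 kb 409 and 373, and over 5 kb 797 and 793. Within II, peaks of the same width class also had nearly the same score in the middle and on the right when narrow, with 74.6 and 80.2 up to 1.5 kb and 149 and 144 up to 2.5 kb. For wider peaks the right stretch was lower, with 341 against 428 between 2.5 and 5 kb and 577 against 797 over 5 kb, the last from 12 and 97 peaks. Within these classes, the middle and the right of II thus differed mainly among the wide peaks. Widths inside a class were not matched.

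The best-scored peak of II, with 2381, spanned 9334056 to 9341523, was 7.47 kb wide and ranked 8 in the whole list. It belonged to a run of 4 peaks from 9319547 that also held the peak ranked 3 on II, from 9323850 to 9331503 (score 1828), with a 2.14 kb peak of score 132 between them. The peak ranked 2, from 6551467 to 6560254, scored 1951, and that ranked 4, from 7050684 to 7056983, scored 1806. The next 3 were at 5716164 to 5721622 (1638), 8593904 to 8602942 (1553) and 8042045 to 8049334 (1547). Of the 8 best-scored peaks, 7 were in the central part, and the eighth was the one at 1.12 Mb in the sparse stretch. Their widths ranged from 5.46 to 10.0 kb, and none of the 8 was among the 15 widest.

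Spacing of the peaks of II lay between that of I and IV. Edge to edge, neighbours were a median of 2386 bp apart, against 2348 bp on I and 2556 bp on IV, with quartiles of 519 bp and 17.3 kb. The lower quartile was 483 bp on I, 525 bp on III, 557 bp on IV and 1036 bp on V. The upper quartile was 11.3 kb on III, 13.2 kb on I, 19.5 kb on IV and 41.6 kb on V. Short distances of II were thus like those of I, III and IV. Its long ones lay between those of the denser chromosomes I and III and those of IV. Intervals over 50 kb took up 49.2% of the extent of II, against 28.1% on III, 32.1% on I, 58.0% on IV and 71.8% on V.

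**Figure D5:**
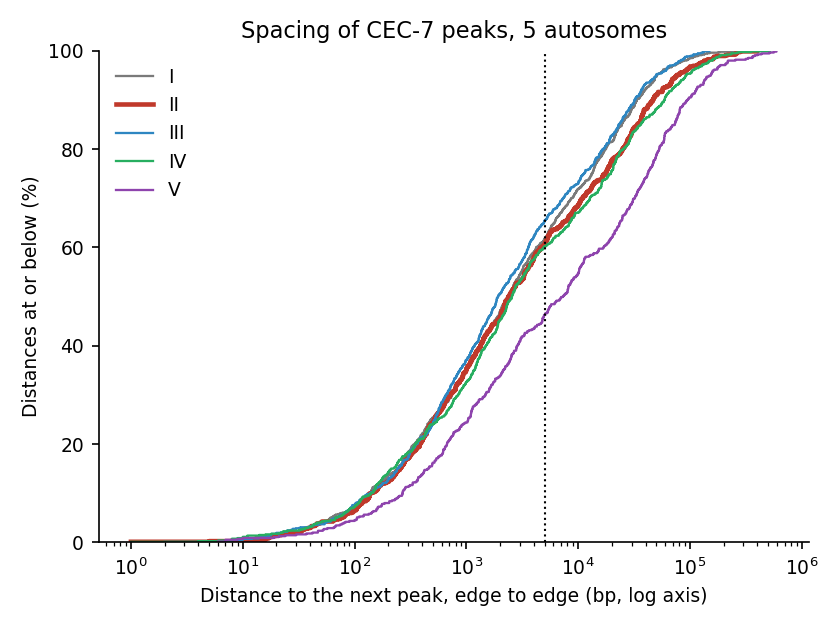
Cumulative percent of distances between neighbouring CEC-7 peaks, edge to edge in bp on a log axis, for the 5 autosomes, with a dotted line at 5 kb. The curve of chromosome II runs with those of I, III and IV at short distances, with 60.6% of its distances at or below 5 kb, against 46.3% on V.

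Of the peaks of II, 84.9% had a neighbour within 5 kb, against 84.9% on I, 87.9% on III, 83.0% on IV and 70.0% on V. When peaks no more than 5 kb apart were joined, II fell into 297 runs. Of these, 114 were single peaks, 73 were pairs, 50 held 3 peaks, 19 held 4 and 41 held 5 or more. The 41 long runs held 267 peaks, or 35.5% of those on II, against 44.1% on III, 39.1% on I, 35.4% on IV and 19.5% on V. In the right part of II this share was 45.1%, on the left 36.5% and in the centre 21.6%. Long runs thus took a larger share of the peaks on the right than in the centre, although most peaks of the right part lay outside them. The same contrast of centre and right was present on III (22.1% and 55.2%), IV (18.4% and 40.8%) and V (8.33% and 28.6%), whereas I had 32.3% in the centre and 29.5% on the right. The left part exceeded the centre on each of these, with 51.8% on I, 51.3% on III, 46.25% on IV and 21.7% on V.

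The longest run of II, with 16 peaks, spanned 50.4 kb from 13534384 to 13584739. Its peaks had a median of 1468 bp in width and scores from 55.1 to 610, and 59.2% of its span lay inside a peak. The next, with 14 peaks, covered 59.0% of 55.7 kb from 13373261 to 13428923, with a highest score of 521. Both lay in the window from 13 to 14 Mb, and neither contained a peak of the upper 10% by score. The run ranked 3, with 12 peaks over 60.1 kb from 5346092 to 5406186, lay in the centre, followed a peak-free interval of 254 kb, and included an 11.7 kb peak. Of the 3 runs of 9 peaks, that from 12121822 to 12162896 had 82.7% of its 41.1 kb covered and ended in a 12.3 kb peak, and that from 13185721 to 13216988 had 69.4% of its 31.3 kb covered. The remaining run of 9, from 4323107 to 4352942 in the left part, had 80.4% of its 29.8 kb covered. Of these 6 runs, 4 were thus on the right, 1 in the centre and 1 on the left.

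Peaks of long runs were smaller on II than those of short runs. Median width was 2183 bp in runs of 5 or more, 2602 bp in runs of 2 to 4 and 2572 bp in single peaks, and 9.36%, 20.4% and 16.7% of these peaks were wider than 5 kb. Median scores were 189, 228 and 214. Single peaks of II thus lay above those of long runs and slightly below those of runs of 2 to 4 in each of these values. On III, IV and V long runs had the smallest median width as well, while on I they had 2347 bp against 2141 bp in runs of 2 to 4. Run length and position were not separated on II. Runs of 5 or more held 48.1% of the peaks beyond 12 Mb, where the median width was 1730 bp. From 4 to 12 Mb, where it was 3024 bp, they held 27.7%. The part of position in the difference was not tested. Very short distances were present on each autosome, with 6.52% of the distances of II at or below 100 bp and 4.55% to 7.71% on the others. Whether such neighbours are separate binding regions or 1 region divided by the caller was not tested.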

How the data were processed

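Peaks of 1 ChIP library were analysed. No processed file of the input library was used. Peaks were called with MACS on WormBase WS220, per the file headers and the list's own source field, and reads were aligned with BWA to ce10, per the submitters' processing notes. Versions, filters and the part of the input in calling are not given in sources used here. The deposited score is the authors' caller's own value, with a unit not stated, and ran from 50 to 3100. Start and end were used as deposited (1-based). Read depth is unknown, since the list gives no counts, and no interval that needs it is given. No test was made, since there was 1 library.

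Windows of 1 Mb and 250 kb started at the first base, and covered bases were split exactly at their borders. Peaks were assigned by midpoint. Named regions were the first and last peak, the 8 best-scored, the 5 widest, the 5 longest intervals, the 5 runs with most peaks (6 with a tie), the 3 most and least covered windows and the 3 best-scored peaks of the last 1 Mb. The regions, stretches and rules were chosen with earlier results of these data known. Genes and sequence were not used, since the gene table at hand was of another build. Functions were tested on simulated lists with planted counts. Figures were drawn with matplotlib 3.10.9, and values came from pandas 2.3.3, numpy 2.4.6 and scipy 1.17.1 under Python 3.11.15.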

Additional observations from a re-analysis of the deposited data

How the results depend on the processing

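Of 38 alternative values, 23 stayed within the 95% binomial interval of a share or median, or within 1.5 times a count, density or coverage; those intervals treat peaks as independent, which they are not. The other 15 follow. Among peaks at or above the list's median score there were 394 on II, with 39.8% in the right part, a median width of 3798 bp and 63.5% with a neighbour within 5 kb; merging within 1000 bp gave 488 peaks, 3884 bp and 62.9%. By covered bases the right part held 39.2%. With a limit of 2 kb, 69.5% had a neighbour, and with 10 kb 90.7%. The densities of the 3 stretches were added after seeing the data. In the better-scored peaks they were 6.67 per Mb from 1 to 4 Mb, 33.1 from 4 to 12 Mb and 26.5 beyond, so the middle, not the right, was densest. After merging the latter 2 were 33.5 and 46.2. Moving the borders by 250 kb kept all 3 within 1.5 times. No paired analysis was possible because the series has a single ChIP list. Peaks below the cutoff used in calling are not listed, so weaker occupancy, in the sparse stretch or elsewhere, was not detectable.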
